A study of Mus musculus with 28 samples.

Results

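TEAD, YAP and Hippo pathway genes were followed across the colon organoids of this study. The group was a list of 10 genes: the transcription factors *Tead1*, *Tead2*, *Tead3* and *Tead4*, the co-activators *Yap1* and *Wwtr1*, the kinases *Lats1* and *Lats2*, the scaffold *Amotl2* and the TEAD cofactor *Vgll4*. All 10 of 10 were among the 13519 genes of the count data. They were selected on a readout of these samples, since the choice rested on *Tead2* having risen after 4-hydroxytamoxifen (4-HT) in each genotype. The effect of 4-HT on these genes is for this reason given as a description, while differences between genotypes were tested.

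TEAD factors bind DNA and need a partner to act on transcription. YAP (encoded by *Yap1*) and TAZ (encoded by *Wwtr1*) are partners that activate it, and VGLL4 competes with them for TEAD. In the Hippo cascade, the LATS kinases phosphorylate YAP and TAZ, which keeps them out of the nucleus, and angiomotin family members such as AMOTL2 bind YAP. LATS2 and AMOTL2 are themselves encoded by target genes of YAP and TEAD. In the intestine, YAP is known for its role in epithelial regeneration after injury. RNA levels, which were measured here, do not report on the phosphorylation or location of these proteins.

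The organoids came from 7 C57BL/6N mice. All donors carried *Apc* flox/flox and Villin-CreERT2, a Cre recombinase that is driven by a promoter of epithelial cells and acts after 4-HT. AC organoids (1 donor by the labels, although the study's methods state more per genotype) carried no further allele, PAC organoids (2 donors) also carried *Trp53* LSL-R172H/+, BAC organoids (2 donors) carried *Braf* floxV600E/+, and BPAC organoids (2 donors) carried both. R172H and V600E are amino acid changes of p53 and BRAF found in tumours. Per the supplement of the study, the *Braf* allele encodes wild-type BRAF until Cre has acted, and a STOP cassette blocks the *Trp53* allele until then. Cultures received 3.5 µM 4-HT or ethanol (EtOH) for 24 hours, with RNA taken 3 days later, and each donor contributed 2 cultures, called duplicates, with each treatment. Each treatment of AC had 2 samples and that of any other genotype 4, for a total of 28. Ages were not given in the sources used here, and no organoids without the *Apc* allele and no organoids without Cre that received 4-HT were analysed here, so that loss of *Apc* and exposure to 4-HT cannot be told apart. As the duplicates of a donor are not separate animals, p-values measure the spread between samples rather than between mice.

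Totals ranged from 20577276 to 40068718 counts, with the highest in duplicate 1 of BAC and BPAC with 4-HT. *Trp53* was at 51.4 to 66.1 CPM (read counts scaled to library size with TMM) in the EtOH-treated samples with the LSL allele and at 97.9 to 121.6 CPM in those without it, as labelled, whereas counts over whole genes do not check recombination of *Apc* or *Braf*. All 10 markers of colon epithelium were listed, and their summed level was 26830 to 38740 CPM with EtOH and 16360 to 23450 CPM with 4-HT. Of these, *Car1* was at 9658 to 20560 CPM with EtOH and 2542 to 9148 CPM with 4-HT, while *Krt18* lay the other way, at 842 to 1606 and 1438 to 2053 CPM with some overlap. Of 10 markers of fibroblasts and muscle, 1 could be analysed here (*Pdgfrb*, at 3.38 to 13.7 CPM with EtOH and 0.238 to 3.83 CPM with 4-HT), with 3 of 8 immune and 2 of 4 endothelial markers summing to at most 7.08 and 6.1 CPM. The part of these markers in the changes with 4-HT was not tested. A lower level in these bulk samples can mean fewer cells of a type or less RNA per cell, which cannot be told apart. The 4-HT-treated PAC samples of duplicate 1 stood apart: both donors' samples held over 100 counts of *Xist* and over 100 of Y-linked genes, whereas in each of the other 26 samples 1 of these was at 8 or less, and differed from each other less than any other pair within a group (chi-square per gene 2.38, against 8.54 or more). In the EtOH samples of duplicate 1, *Xist* and Y-linked counts were 7 and 3731 for the first PAC donor and 1495 and 0 for the second. The pairing of these EtOH samples with the 4-HT samples that stood apart is therefore uncertain. Values per culture and per donor include these pairs. Except for *Amot*, the log2 changes in PAC and log2 differences by allele after 4-HT named here are also given without the 4-HT samples that stood apart.

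Promoter sequences are shown for members whose RNA was higher or lower with 4-HT in every culture or differed by the *Braf* allele, so that they can be read beside the values. Of the 10 members, 8 matched an entry, and *Tead1* and *Tead4* did not. Each is the 250 bases before the transcription start in RefSeq (GRCm38.p6), 5′ to 3′ on the strand of the gene. Capitals mark GGAATG, the core TEAD motif, CTTTGA, a core TCF/LEF motif, and TGANTCA, the AP-1 motif, each searched on both strands. TCF/LEF factors carry the Wnt signal that *Apc* restrains. Over all 32841 promoters of this length, 12.6% held the TEAD motif, 13.8% the TCF/LEF motif and 6.75% the AP-1 motif.
Tead2, chr7:45215542-45215791, plus strand: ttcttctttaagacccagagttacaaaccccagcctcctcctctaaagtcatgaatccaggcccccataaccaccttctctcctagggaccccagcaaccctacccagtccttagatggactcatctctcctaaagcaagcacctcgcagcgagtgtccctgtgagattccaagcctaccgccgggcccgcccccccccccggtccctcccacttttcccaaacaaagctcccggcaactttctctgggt
Yap1, chr9:8004597-8004846, minus strand: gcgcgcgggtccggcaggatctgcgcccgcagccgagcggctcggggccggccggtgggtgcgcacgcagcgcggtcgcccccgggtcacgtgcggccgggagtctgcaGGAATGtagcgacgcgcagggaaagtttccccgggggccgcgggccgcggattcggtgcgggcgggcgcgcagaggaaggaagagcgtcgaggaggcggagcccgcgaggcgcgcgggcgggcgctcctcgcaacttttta
Wwtr1, chr3:57575911-57576160, minus strand: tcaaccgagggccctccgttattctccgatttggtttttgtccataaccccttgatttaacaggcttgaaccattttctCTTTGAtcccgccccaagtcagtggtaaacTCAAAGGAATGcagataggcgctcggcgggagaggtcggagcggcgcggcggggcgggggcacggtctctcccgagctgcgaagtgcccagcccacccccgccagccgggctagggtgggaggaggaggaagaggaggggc
Lats2, chr14:57746124-57746373, minus strand: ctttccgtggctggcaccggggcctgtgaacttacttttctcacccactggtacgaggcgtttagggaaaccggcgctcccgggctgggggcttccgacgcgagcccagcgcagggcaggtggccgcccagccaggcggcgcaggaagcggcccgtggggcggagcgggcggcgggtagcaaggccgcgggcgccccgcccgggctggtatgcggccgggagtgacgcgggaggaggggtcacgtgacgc
Amotl2, chr9:102717554-102717803, plus strand: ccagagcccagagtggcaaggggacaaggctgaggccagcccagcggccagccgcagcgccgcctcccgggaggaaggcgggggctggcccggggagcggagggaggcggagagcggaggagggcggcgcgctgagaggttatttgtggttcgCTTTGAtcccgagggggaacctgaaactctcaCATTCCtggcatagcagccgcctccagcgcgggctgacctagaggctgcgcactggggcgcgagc
Vgll4, chr6:114969204-114969453, minus strand: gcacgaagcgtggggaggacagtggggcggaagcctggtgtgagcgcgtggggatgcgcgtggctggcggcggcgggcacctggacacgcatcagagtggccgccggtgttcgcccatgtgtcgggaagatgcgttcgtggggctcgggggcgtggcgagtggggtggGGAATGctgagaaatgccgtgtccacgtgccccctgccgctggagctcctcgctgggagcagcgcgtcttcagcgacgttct

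The *Yap1*, *Wwtr1*, *Amotl2* and *Vgll4* promoters each held 1 TEAD motif. In *Wwtr1* it overlapped by 1 base with the second of 2 TCF/LEF motifs, and *Amotl2* held 1 TCF/LEF motif in addition. The windows of *Tead2* and of this *Lats2* start held none of the 3 motifs, and no AP-1 motif was found in any of the 6. A match is a run of letters and not a measured binding site. RefSeq listed a further start for *Wwtr1* and for *Lats2*, as well as 3 for *Tead3* and 1 for *Lats1*, which are not printed. The GENCODE gene extends upstream of the printed RefSeq start for *Tead2*, *Amotl2*, *Lats2* and *Vgll4*.

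Among the TEAD paralogs, *Tead2* had the largest 4-HT change in AC, PAC and BPAC, and *Tead4* in BAC. *Tead2* lies at chr7:45215753-45233644 on the plus strand (GRCm38). Values are CPM scaled by TMM and are listed as duplicate 1 and 2 of the first donor, then of the second. In AC, *Tead2* was at 9.53 and 8.37 CPM with EtOH and at 26.4 and 18.2 CPM with 4-HT. In PAC, it was at 6.34, 7.74, 4.61 and 6.18 CPM with EtOH and at 25.7, 20.8, 26.7 and 20.7 CPM with 4-HT. EtOH and 4-HT samples of these genotypes did not overlap. In BAC, *Tead2* was at 7.69, 4.75, 7.72 and 6.61 CPM with EtOH and at 17.8, 17.4, 18.7 and 13.2 CPM with 4-HT. In BPAC, it was at 4.82, 5.09, 8.74 and 5.29 CPM with EtOH and at 18.9, 14.5, 20.7 and 18.3 CPM with 4-HT. Here too the treatments did not overlap, and the EtOH sample of duplicate 1 of the second BPAC donor was the highest of its group.

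The log2 changes of *Tead2* from edgeR's quasi-likelihood fit were 1.32 ± 0.27 (SE), 1.92 ± 0.20, 1.32 ± 0.19 and 1.60 ± 0.20 in AC, PAC, BAC and BPAC. Without the PAC samples that stood apart, the PAC value was 1.74. Per culture, the change ran from 0.99 to 2.52 with a median of 1.48, and it was positive in 14 of 14 cultures. Since these changes chose the members, their comparison between genotypes is given for *Tead2* as values alone: the change with the *Braf* allele minus that without it was -0.16 ± 0.21, with 0.44 ± 0.21 for the *Trp53* allele (-0.07 and 0.35 without the PAC samples that stood apart). Averaged per donor, the 4 donors with the *Braf* allele changed by 1.13 to 1.73 and the 3 donors without it by 1.29 to 2.12. The donor means overlapped, and their difference was -0.24, with -0.58 in duplicate 1, 0.11 in duplicate 2 and -0.0069 without the PAC samples that stood apart.

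*Tead4* (chr6:128224288-128300823, minus strand) was also higher with 4-HT in every culture, with larger changes in BAC and BPAC. With EtOH, *Tead4* was at 5.16 to 7.48 CPM in the 6 samples without the *Braf* allele and at 5.01 to 8.35 CPM in the 8 samples with it. With 4-HT, it was at 8.33 and 12.4 CPM in AC, and at 8.97, 12, 9.11 and 11.3 CPM in PAC. The corresponding values were 15.3, 16.3, 16.6 and 14 CPM in BAC and 18.1, 12.5, 19.0 and 12.7 CPM in BPAC. Each 4-HT sample with the *Braf* allele thus lay above each one without it, although 12.4 CPM in AC and 12.5 CPM in BPAC nearly touched. The log2 changes were 0.59 ± 0.24 (SE), 0.71 ± 0.17, 1.47 ± 0.18 and 1.28 ± 0.17 in AC, PAC, BAC and BPAC. Per culture, the change ran from 0.25 to 1.68 and was positive in 14 of 14.

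*Tead1* and *Tead3* showed no such change. *Tead1* (chr7:112679318-112906807) was at 12.7 to 27.4 CPM with EtOH and 11.8 to 21.1 CPM with 4-HT in the samples without the *Braf* allele, and at 9.26 to 17.0 and 8.26 to 12.5 CPM in those with it. Its log2 changes were -0.14 ± 0.34 (SE), -0.13 ± 0.24, -0.31 ± 0.25 and -0.33 ± 0.24 in AC, PAC, BAC and BPAC, with 11 of 14 cultures lower and a PAC value of 0.16 without the samples that stood apart. For *Tead3* (chr17:28331671-28350817), the range was 7.52 to 13.2 CPM with EtOH and 7.27 to 10.9 CPM with 4-HT. Its changes were -0.35 ± 0.22, -0.19 ± 0.15, -0.24 ± 0.15 and -0.38 ± 0.15 in AC, PAC, BAC and BPAC, with 13 of 14 cultures lower. The EtOH and 4-HT samples overlapped for *Tead1* in every genotype and for *Tead3* in each except AC. When the counts were scaled by library size alone, the median change of all genes shifted up by 0.17 to 0.22 and the small negative values turned positive for *Tead1* in AC (0.09) and PAC (0.10) and for *Tead3* in PAC (0.04). Under this scaling, 83.3%, 82.1%, 65.3% and 68.0% of all calls in AC, PAC, BAC and BPAC were higher with 4-HT, as against 41.4%, 47.7%, 48.6% and 48.9% under TMM.

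**Figure D1:**
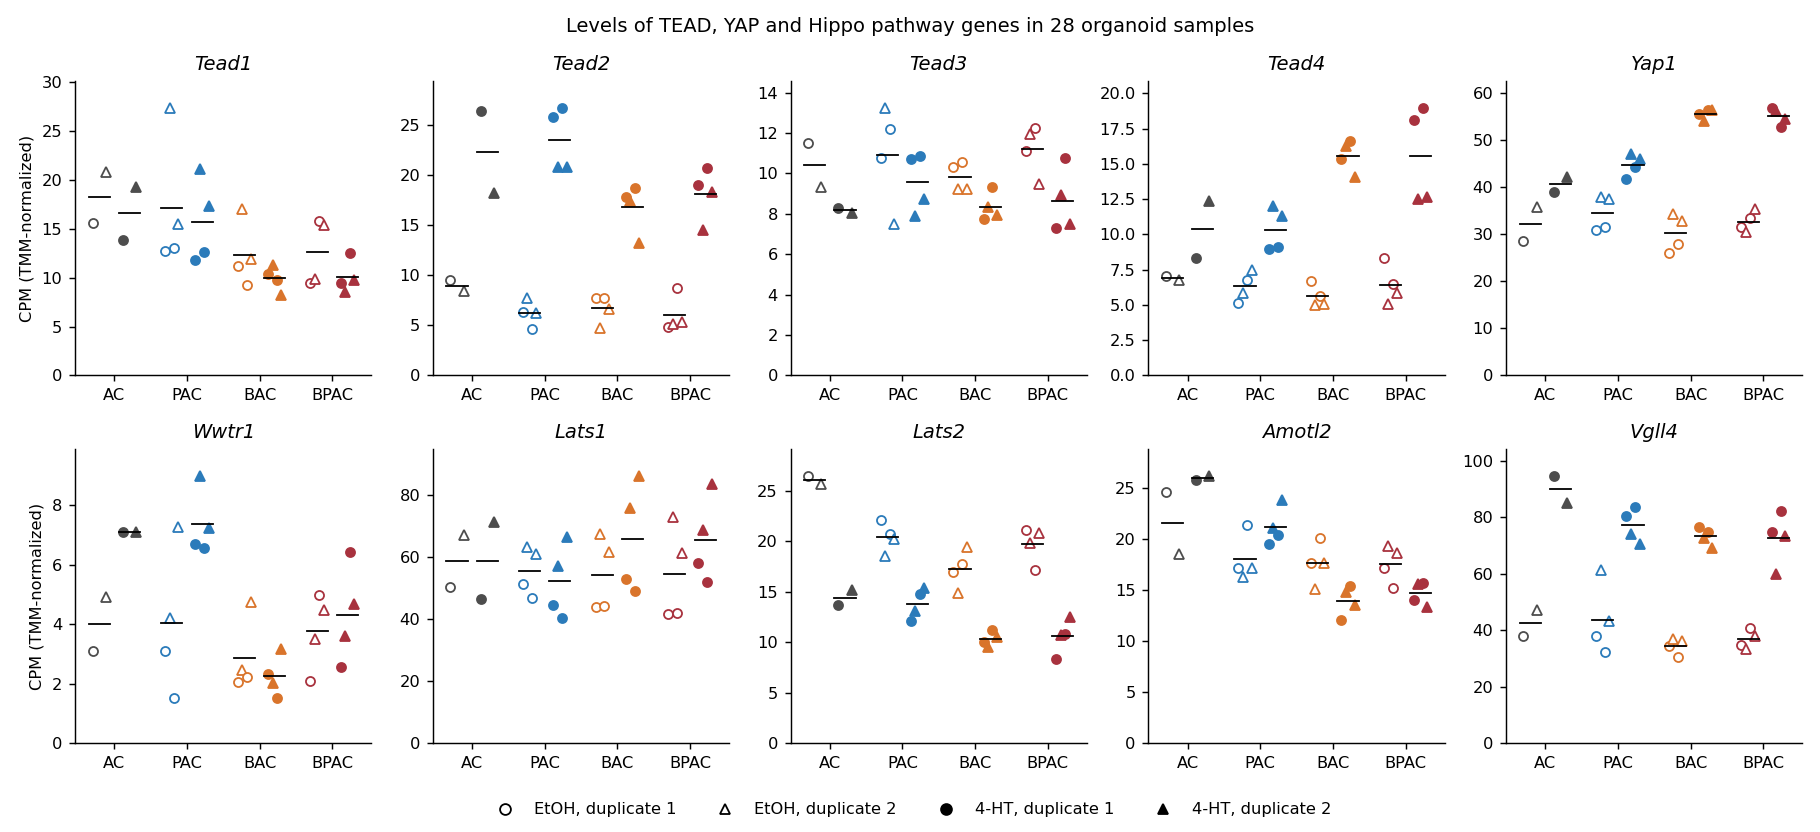
Levels of the 10 genes in every sample. Each panel has its own linear y axis in TMM-normalized CPM, open symbols are EtOH and filled symbols 4-HT samples, circles are duplicate 1 and triangles duplicate 2, and black lines are group means. *Tead2* with 4-HT lies above EtOH in every genotype, whereas *Yap1* and *Tead4* with 4-HT reach higher levels where the *Braf* allele is present.

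To compare the paralogs with each other, CPM were divided by the length of the union of the exons (13570 bases for *Tead1*, 4788 for *Tead2*, 6714 for *Tead3* and 3598 for *Tead4*). The summed *Tead* level per length was 6.68 ± 0.18 (SD, n = 2), 5.95 ± 0.87 (n = 4), 5.33 ± 0.39 (n = 4) and 5.64 ± 0.71 (n = 4) CPM per kb with EtOH in AC, PAC, BAC and BPAC. With 4-HT, it was 9.98 ± 0.16, 10.4 ± 0.25, 9.80 ± 0.945 and 10.1 ± 1.64 CPM per kb. The sample ranges of the totals overlapped between genotypes after 4-HT. *Tead2* held 46.6% ± 11.4 of the total in AC and 47.3% ± 5.6 in PAC, as against 35.6% ± 2.1 in BAC and 37.5% ± 2.8 in BPAC. *Tead4* held 29.0% ± 8.5 and 27.8% ± 4.4 in AC and PAC and 44.2% ± 1.4 and 42.4% ± 3.6 in BAC and BPAC. *Tead2* was therefore the first and *Tead4* the second paralog by mean share in AC and PAC, and the order was turned around in BAC and BPAC, where the sample ranges (32.7% to 37.5% for *Tead2* against 43.1% to 46.1% for *Tead4*) did not overlap in BAC but overlapped in BPAC (35.7% to 41.6% against 38.4% to 46.8%). With EtOH, the mean shares lay between 16.5% (*Tead1* in BPAC) and 31.8% (*Tead4* in BPAC), and the sample ranges of neighbours in the order overlapped, except for *Tead2* and *Tead3* in AC. These shares depend on the transcript lengths that are assumed: with the longest transcript in place of the union of exons, *Tead2* and *Tead4* held 36.7% and 37.8% in BAC and 38.5% and 36.2% in BPAC, so that *Tead4* no longer led in BPAC.

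**Figure D2:**
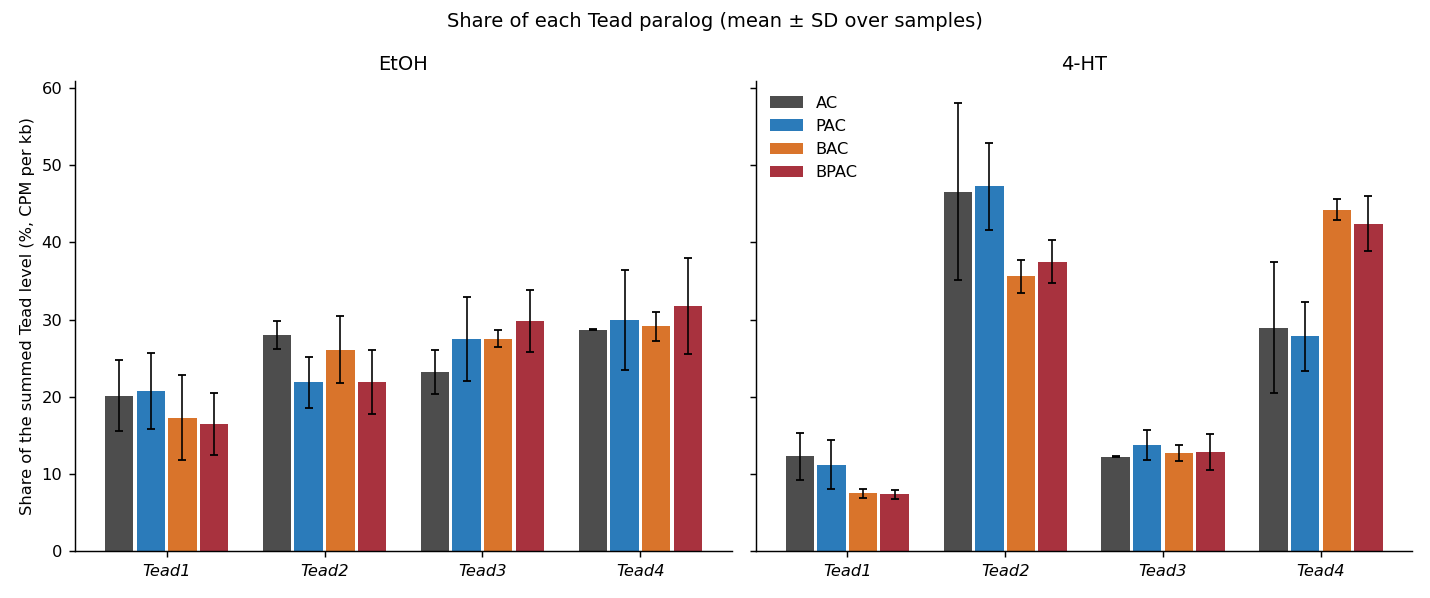
Share of each *Tead* paralog in the summed *Tead* level, in percent of CPM per kb of exon, with EtOH on the left and with 4-HT on the right. Bars are means over 2 samples (AC) or 4 samples (other genotypes) and error bars are SD. With 4-HT, the *Tead2* bar is tallest in AC and PAC (46.6% and 47.3%) and the *Tead4* bar in BAC and BPAC (44.2% and 42.4%).

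Among the co-activators, *Yap1* (chr9:7931999-8004596, minus strand) was higher with 4-HT in every culture, and more so where the *Braf* allele was present. In AC, *Yap1* was at 28.6 and 35.7 CPM with EtOH and at 39.0 and 42.1 CPM with 4-HT. In PAC, it was at 30.9, 38.0, 31.5 and 37.4 CPM with EtOH and at 41.7, 47.0, 44.2 and 45.9 CPM with 4-HT. The EtOH and 4-HT samples did not overlap, by a small gap in each. In BAC, *Yap1* was at 26.0, 34.2, 27.9 and 32.9 CPM with EtOH and at 55.5, 54.1, 56.4 and 56.3 CPM with 4-HT. In BPAC, the values were 31.5, 30.4, 33.3 and 35.4 CPM with EtOH and 56.8, 56.2, 52.8 and 54.4 CPM with 4-HT. All 8 samples with the *Braf* allele and 4-HT lay above all 6 with 4-HT and without it, while the EtOH ranges of all genotypes overlapped. The log2 changes were 0.34 ± 0.13 (SE), 0.38 ± 0.09, 0.88 ± 0.09 and 0.75 ± 0.09 in AC, PAC, BAC and BPAC.

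*Wwtr1* (chr3:57455649-57575910), which encodes TAZ, was the member with the fewest counts (38 to 270 per sample). In AC, it was at 3.11 and 4.92 CPM with EtOH and at 7.11 and 7.12 CPM with 4-HT. In PAC, it was at 3.12, 4.23, 1.52 and 7.29 CPM with EtOH and at 6.70, 9.0, 6.58 and 7.25 CPM with 4-HT. The EtOH samples of PAC were widely spread and reached into the 4-HT range. In BAC, *Wwtr1* was at 2.07, 2.48, 2.23 and 4.76 CPM with EtOH and at 2.34, 2.04, 1.52 and 3.19 CPM with 4-HT. In BPAC, it was at 2.09, 3.51, 4.98 and 4.50 CPM with EtOH and at 2.56, 3.60, 6.42 and 4.69 CPM with 4-HT. These treatments overlapped. The log2 changes were 0.83 ± 0.51 (SE), 0.87 ± 0.36, -0.36 ± 0.37 and 0.19 ± 0.36 in AC, PAC, BAC and BPAC. Per length, the ratio of *Yap1* to *Wwtr1* with 4-HT was 2.95 ± 0.16 (SD, n = 2) in AC and 3.16 ± 0.33 (n = 4) in PAC. It was 13.6 ± 4.2 (n = 4) in BAC and 7.43 ± 3.10 (n = 4) in BPAC. With EtOH, the group means were 4.25 to 5.91, and single samples of PAC ran from 2.65 to 10.68. In BPAC, the samples with EtOH (3.45 to 7.80) and 4-HT (4.24 to 11.45) overlapped, whereas in BAC they did not (3.57 to 7.13 and 9.13 to 19.21). With the longest transcript in place of the union of exons, the ratios with 4-HT were 5.07, 5.45, 23.4 and 12.8 in AC, PAC, BAC and BPAC.

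Of the LATS kinases, *Lats2* (chr14:57689662-57758388) was lower with 4-HT in every culture. In AC, *Lats2* was at 26.5 and 25.7 CPM with EtOH and at 13.7 and 15.1 CPM with 4-HT. In PAC, it was at 22.1, 18.6, 20.7 and 20.2 CPM with EtOH and at 12.1, 13.1, 14.8 and 15.3 CPM with 4-HT. Treatments did not overlap in either genotype. In BAC, *Lats2* was at 17.0, 14.9, 17.8 and 19.4 CPM with EtOH and at 10.1, 9.57, 11.2 and 10.5 CPM with 4-HT. In BPAC, the values were 21.1, 19.8, 17.2 and 20.8 CPM with EtOH and 8.39, 10.8, 10.8 and 12.5 CPM with 4-HT. These groups were separate as well. The log2 changes were -0.86 ± 0.16 (SE), -0.56 ± 0.11, -0.74 ± 0.11 and -0.89 ± 0.11 in AC, PAC, BAC and BPAC. *Lats1* (chr10:7681214-7716460), its paralog, showed no common direction, with changes of 0.01 ± 0.31, -0.09 ± 0.22, 0.28 ± 0.22 and 0.27 ± 0.22 in AC, PAC, BAC and BPAC. With library size alone the PAC value was 0.13. *Lats1* passed the threshold in BAC and BPAC when the duplicate number was a covariate, and in BPAC in duplicate 1 alone. *Lats1* levels were 41.6 to 72.7 CPM with EtOH and 40.3 to 86.2 CPM with 4-HT, and duplicate 2 was higher than duplicate 1 in 7 of 7 donors with each treatment.

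*Vgll4* (chr6:114860628-114969994), the inhibitory TEAD cofactor, was higher with 4-HT in every culture. In AC, it was at 38.1 and 47.3 CPM with EtOH and at 94.8 and 85.3 CPM with 4-HT. In PAC, *Vgll4* was at 37.9, 61.3, 32.4 and 43.3 CPM with EtOH and at 80.6, 74.0, 83.7 and 70.6 CPM with 4-HT. The groups did not overlap, although the duplicate 2 sample of the first PAC donor was the highest of the EtOH samples. In BAC, it was at 34.6, 36.8, 30.5 and 36.4 CPM with EtOH and at 76.7, 72.6, 75.0 and 69.1 CPM with 4-HT. In BPAC, it was at 34.7, 33.5, 41.0 and 38.1 CPM with EtOH and at 74.7, 60.0, 82.2 and 73.6 CPM with 4-HT. The log2 changes were 1.08 ± 0.19 (SE), 0.82 ± 0.14, 1.09 ± 0.14 and 0.98 ± 0.14 in AC, PAC, BAC and BPAC, with 14 of 14 cultures higher.

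*Amotl2* (chr9:102716672-102733418) had 4-HT changes of opposite sign with and without the *Braf* allele. In AC, it was at 24.6 and 18.5 CPM with EtOH and at 25.8 and 26.2 CPM with 4-HT. In PAC, *Amotl2* was at 17.2, 16.2, 21.4 and 17.2 CPM with EtOH and at 19.5, 21.1, 20.4 and 23.8 CPM with 4-HT. In 5 of these 6 cultures, it was higher with 4-HT. In BAC, it was at 17.7, 15.1, 20.1 and 17.6 CPM with EtOH and at 12, 14.8, 15.4 and 13.6 CPM with 4-HT. In BPAC, it was at 17.1, 19.3, 15.2 and 18.6 CPM with EtOH and at 14, 15.6, 15.7 and 13.3 CPM with 4-HT. In 7 of these 8 cultures, it was lower with 4-HT. The log2 changes were 0.27 ± 0.16 (SE), 0.24 ± 0.12, -0.34 ± 0.12 and -0.26 ± 0.12 in AC, PAC, BAC and BPAC.

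**Figure D3:**
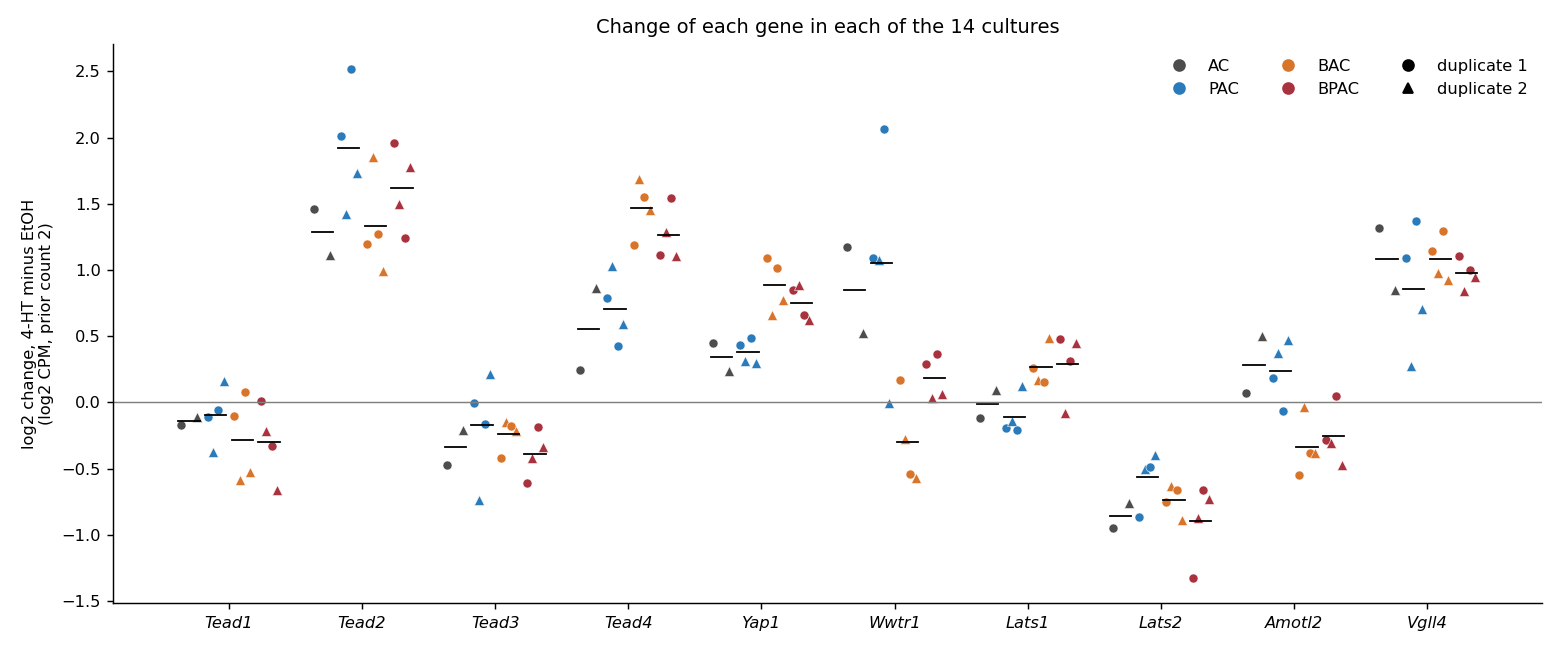
Change of each gene in each of the 14 cultures, as log2 CPM with 4-HT minus log2 CPM with EtOH of the same donor and duplicate. Colours are genotypes, circles are duplicate 1, triangles are duplicate 2 and black lines are genotype means. *Tead2*, *Tead4*, *Yap1* and *Vgll4* lie above 0 and *Lats2* below 0 in all 14 cultures.

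At an adjusted p of under 0.01 in edgeR, 3 of 10 members were called in AC (*Tead2*, *Vgll4* and *Lats2*), where 7.25% of all 13519 genes were called. Calls covered 5 of 10 members in PAC, BAC and BPAC each, namely these 3 with *Tead4* and *Yap1*. The share of all genes called was 23.4% in PAC, 41.9% in BAC and 45.0% in BPAC. The members' counts in these comparisons follow from how they were chosen and carry no test. Without the PAC samples that stood apart, 3 members and 7.08% of all genes were called in PAC, as *Yap1* (0.43) and *Lats2* (-0.52) then missed the threshold, with 0.88 for *Tead4*, 0.73 for *Vgll4*, 1.01 for *Wwtr1*, 0.32 for *Amotl2*, 0.16 for *Lats1* and -0.39 for *Tead3*. The AC counts rest on 2 cultures of 1 donor, and 0 members were called there when either culture was left out, a fit in which AC had 1 culture and the spread came from the other genotypes. With the culture as a replicate block, *Wwtr1* was called in PAC in addition (1.02, 6 members in all), with 34.9% of all genes called. It was not called there with the duplicates of each donor summed, and in duplicate 2 of the second PAC donor its change was -0.0073. With library size alone, where 13.4% of all genes were called in AC and 30.5% in PAC, *Yap1* was called in AC in addition (0.56), and in PAC *Amotl2* was called (0.46) and *Lats2* was not (-0.34). When the duplicates of each donor were summed, *Lats2* was not called in AC (-0.89).

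Whether the levels or the response of these genes differed with the *Braf* allele was tested by comparing BAC and BPAC with AC and PAC. With EtOH the allele is not recombined, so that this comparison does not concern mutant BRAF. With EtOH, 0 of 10 members differed in edgeR, with 0.0296% of all genes called, 3 members and 17.2% of all genes at an unadjusted p of under 0.05, and 0 calls by limma-voom and DESeq2. The largest difference was that of *Tead1* (-0.50 ± 0.19 on the log2 scale, adjusted p = 0.191), and the smallest adjusted p was that of *Lats2* (-0.32 ± 0.09, adjusted p = 0.0977). With 4-HT, 6 of 10 members differed, as compared with 30.2% of all genes. *Yap1* and *Tead4* were higher with the *Braf* allele, and *Wwtr1*, *Amotl2*, *Tead1* and *Lats2* were lower.

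With 4-HT, *Yap1* ran from 39.0 to 47.1 CPM (median 43.2) in the 6 samples without and from 52.8 to 56.8 CPM (median 55.8) in the 8 samples with the *Braf* allele, a log2 difference of 0.38 ± 0.07 (SE, adjusted p = 0.0002). *Tead4* ran from 8.33 to 12.4 CPM (median 10.2) without and from 12.5 to 19.0 CPM (median 15.8) with it (0.59 ± 0.14, adjusted p = 0.0012). For both genes, the groups were separate. *Amotl2* ran from 19.5 to 26.2 CPM (median 22.4) without and from 12 to 15.7 CPM (median 14.4) with the allele (-0.71 ± 0.09, adjusted p = 1.39e-06). *Wwtr1* ran from 6.58 to 9.0 CPM (median 7.11) without and from 1.52 to 6.42 CPM (median 2.87) with it (-1.21 ± 0.28, adjusted p = 0.00117). These groups were separate too, so that 4 of 10 members did not overlap, as compared with 21.1% of all genes. *Lats2* (-0.43 ± 0.09, adjusted p = 0.00039) and *Tead1* (-0.69 ± 0.19, adjusted p = 0.00517) overlapped between groups. For *Tead2*, given as values alone, the medians were 23.3 CPM without and 18 CPM with the allele (-0.39 ± 0.15, and -0.30 without the PAC samples that stood apart).

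Without the PAC samples that stood apart, all 6 differences were called, with 28.4% of all genes called. They were 0.35 for *Yap1*, 0.50 for *Tead4*, -0.76 for *Amotl2*, -1.28 for *Wwtr1*, -0.45 for *Lats2* and -0.83 for *Tead1*. Within duplicate 1, the differences were 0.44 for *Yap1*, 0.99 for *Tead4*, -0.67 for *Amotl2*, -1.22 for *Wwtr1*, -0.42 for *Lats2* and -0.30 for *Tead1*. In duplicate 2, they were 0.32, 0.20, -0.76, -1.21, -0.44 and -1.03. The direction was shared, and *Tead4* and *Tead1* differed most between the duplicates. Alone, duplicate 1 gave 3 calls (*Yap1*, *Tead4* and *Amotl2*) and duplicate 2 gave 1 (*Amotl2*). *Tead4* was not called without duplicate 1 of the AC donor (0.46, adjusted p = 0.0294), and *Tead1* was lost without 4 of 14 single cultures, namely duplicate 2 of the AC donor (-0.56, adjusted p = 0.0557), of the first BPAC donor, of the second BAC donor and of the second PAC donor. *Tead1* was also lost without 3 of 7 donors. *Yap1*, *Amotl2*, *Wwtr1* and *Lats2* were called whichever single culture was left out. When the duplicates of each donor were summed, *Lats2* (-0.41, adjusted p = 0.0102) and *Tead1* (-0.63, adjusted p = 0.0203) were not called and *Lats1* was (0.24, adjusted p = 0.0092). *Lats1* was also called with the duplicate number as a covariate (0.25, adjusted p = 0.00249), beside the 6 others. In edgeR over all samples, *Lats1* was not called (0.25, adjusted p = 0.263). Without the PAC samples that stood apart, it was at 0.12 (adjusted p = 0.621). The summed level of the epithelial markers was 18600 to 23450 CPM without and 16360 to 19590 CPM with the *Braf* allele after 4-HT. *Pdgfrb* was at 1.47 to 3.83 CPM without and at 0.238 to 2.07 CPM with it, the immune markers summed to 3.99 to 7.08 and 2.65 to 4.45 CPM, and the endothelial markers to 1.18 to 3.11 and 1.34 to 2.5 CPM. The part of these markers in the differences was not tested.

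The response to 4-HT itself differed with the *Braf* allele for 2 of 10 members, as compared with 6.61% of all genes (46.2% of these calls were higher with the allele, and 34.6% with library size alone). *Yap1* rose more with the allele: the difference between the changes was 0.46 ± 0.10 on the log2 scale (adjusted p = 0.0036). For *Amotl2*, the difference was -0.55 ± 0.13 (adjusted p = 0.00543). Averaged per donor, *Yap1* changed by 0.64 to 0.90 in the 4 donors with and by 0.34 to 0.39 in the 3 donors without the *Braf* allele, and *Amotl2* by -0.38 to -0.21 and by 0.20 to 0.28. Donor means were also separate for *Tead4* (1.20 to 1.5 against 0.51 to 0.91), *Wwtr1* (-0.55 to 0.21 against 0.85 to 1.08) and *Lats1* (0.20 to 0.38 against -0.17 to -0.01), which makes 5 of 10 members, as compared with 35.3% of all genes. In the test over samples, *Tead4* missed the threshold (0.73 ± 0.19, adjusted p = 0.0128) but was called with the culture as a replicate block (0.74, adjusted p = 0.00193). *Wwtr1* (-0.93 ± 0.41, adjusted p = 0.13) and *Lats1* (0.32 ± 0.25, adjusted p = 0.425) were not called, although *Lats1* was with the duplicate number as a covariate (0.34, adjusted p = 0.00872). Without the PAC samples that stood apart, these 3 were at 0.64, -1.0 and 0.19. The second PAC donor then has duplicate 2 alone, where *Wwtr1* changed by -0.0073. This value lies within the range of the donors with the *Braf* allele, so the separate donor means of *Wwtr1* rest on the samples that stood apart.

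The calls for *Yap1* and *Amotl2* were not robust to fewer samples. The *Yap1* difference was 0.46 in each duplicate alone (adjusted p = 0.0108 in duplicate 1 and 0.0866 in duplicate 2), and 0.43 without the PAC samples that stood apart (adjusted p = 0.0108). The *Amotl2* difference was -0.34 in duplicate 1 (adjusted p = 0.187) and -0.76 in duplicate 2 (adjusted p = 0.0511), and it stayed called without those PAC samples (-0.59, adjusted p = 0.00619). After thinning all samples to the smallest total, *Yap1* was called (0.48, adjusted p = 0.00281) and *Amotl2* was not (-0.50, adjusted p = 0.0207). With the duplicates of each donor summed, *Yap1* stayed called (0.50, adjusted p = 0.00672), *Amotl2* was lost (-0.52, adjusted p = 0.0216) and *Tead4* was gained (0.81, adjusted p = 0.00781). The sign of both held in these fits and when single cultures or donors were left out. *Yap1* was not called without 4 of 14 single cultures (both cultures of the AC donor, duplicate 1 of the first BPAC donor and duplicate 1 of the second BAC donor, with adjusted p-values up to 0.0367) or without 6 of 7 donors. *Amotl2* was not called without 8 of 14 cultures (adjusted p up to 0.0669, without duplicate 2 of the AC donor) or without any 1 of the 7 donors.

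The *Trp53* allele made no detectable difference. In edgeR, 0 of 10 members were called for the level with EtOH, the level with 4-HT or the change, with 0.0592%, 0.0444% and 0.0148% of all genes called. At an unadjusted p of under 0.05, the counts were 1, 0 and 0, with 4.96%, 2.42% and 1.04% of all genes, and limma-voom and DESeq2 called 0 members in each comparison. After *Tead2*, the widest difference between the changes was that of *Wwtr1* (0.30 ± 0.41, adjusted p = 1.0, and 0.37 without the PAC samples that stood apart).

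**Figure D4:**
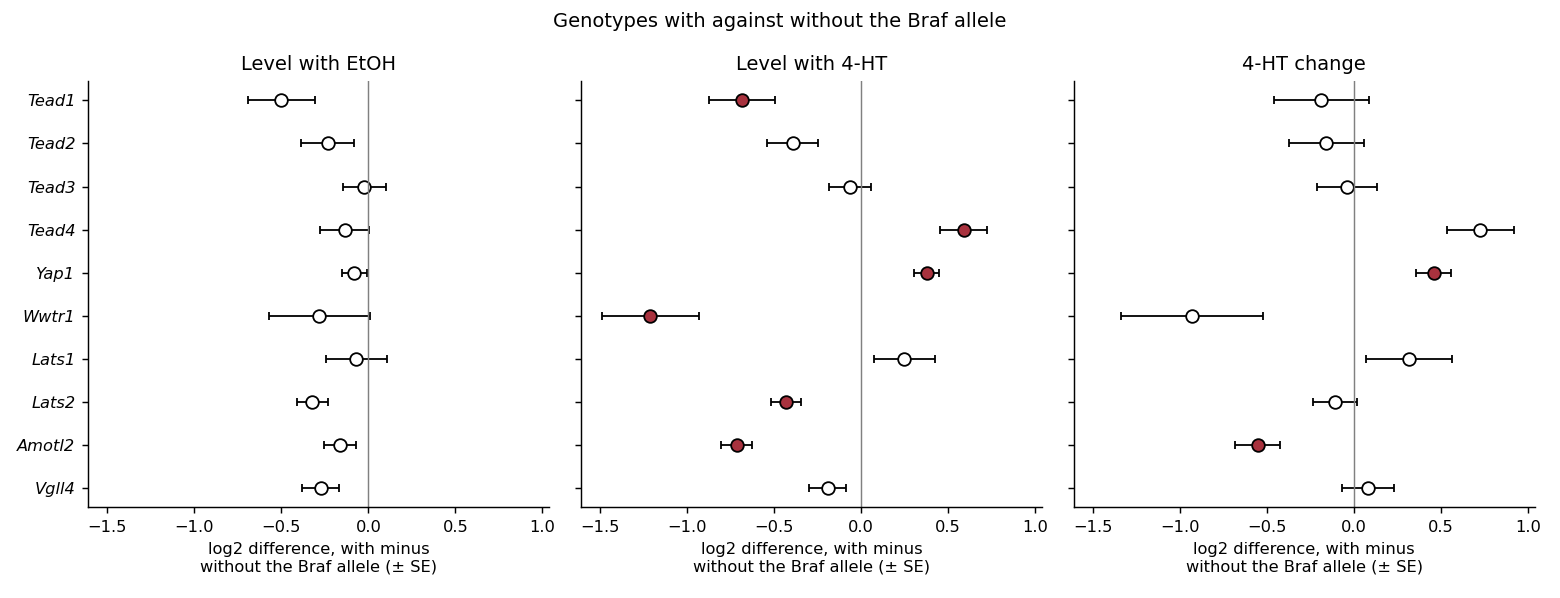
Log2 difference between genotypes with (BAC, BPAC) and without (AC, PAC) the *Braf* allele for the level with EtOH, the level with 4-HT and the 4-HT change. Points are estimates from edgeR, bars are SE and filled points have an adjusted p of under 0.01. With EtOH, no point is filled, with 4-HT 6 are, and for the change *Yap1* (0.46) and *Amotl2* (-0.55) are.

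Beyond the members, 24 of 28 further Hippo pathway genes could be analysed here. In AC, 0 of 24 were called in edgeR (lowest adjusted p = 0.04, with 6 at an unadjusted p of under 0.05 beside 30.8% of all genes, 0 called by limma-voom, 0 by DESeq2 and 3 under the replicate block). There were 3 calls in PAC (all higher), 8 in BAC (3 higher, 5 lower) and 7 in BPAC (3 higher, 4 lower), as compared with 7.25%, 23.4%, 41.9% and 45.0% of all genes in AC, PAC, BAC and BPAC. Without the PAC samples that stood apart, 1 of the 3 PAC calls was left (*Frmd6*), with 7.08% of all genes called. Under the replicate block, the counts in PAC, BAC and BPAC became 10, 12 and 13, with 34.9%, 51.9% and 54.4% of all genes called. The median change of the list was -0.01 to 0.04 in the 4 genotypes, as compared with -0.04 to 0.01 for all genes. The core kinases *Stk3* and *Stk4*, their partner *Sav1* and the upstream regulator *Nf2* were not called in any genotype, although *Stk4* in BAC (0.26) and *Sav1* in BPAC (0.31) were under the replicate block. With library size alone, 2 were higher and 0 lower in AC, 8 and 0 in PAC, 8 and 2 in BAC, and 8 and 3 in BPAC, where 13.4%, 30.5%, 44.0% and 47.1% of all genes were called.

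The largest mean changes among called genes were those of *Vgll3*, *Frmd6*, *Ajuba* and *Map4k4*. *Frmd6*, which encodes a FERM protein upstream of the Hippo kinases, rose in PAC (0.93 ± 0.18, adjusted p = 0.000403, and 1.06 without the samples that stood apart), BAC (0.86 ± 0.18, adjusted p = 0.000371) and BPAC (1.36 ± 0.19, adjusted p = 1.1e-06), with 0.78 ± 0.26 in AC (adjusted p = 0.04). *Ajuba*, which encodes a LIM protein that binds LATS, rose in BAC (1.05 ± 0.23, adjusted p = 0.000487). In PAC it was called (1.11 ± 0.23, adjusted p = 0.000651), but not without the samples that stood apart (0.95, adjusted p = 0.0207). *Map4k4*, a kinase that can phosphorylate LATS, was called in PAC (0.71 ± 0.18, adjusted p = 0.00444), but not without those samples (0.80, adjusted p = 0.0182). Under the replicate block, these 3 genes were called in all 4 genotypes. *Vgll3*, a TEAD cofactor of the same family as *Vgll4*, fell in BAC (-1.49 ± 0.28, adjusted p = 7.91e-05) and BPAC (-2.17 ± 0.28, adjusted p = 4.71e-07), with -0.70 ± 0.37 in AC and -0.23 ± 0.26 in PAC (-0.05 without the samples that stood apart). It was the one gene of the list called for a difference in change by the *Braf* allele (-1.36 ± 0.30, adjusted p = 0.00329, and -1.45 without those samples), with *Amot* in addition under the replicate block (-0.61, adjusted p = 0.00108). The call of *Vgll3* was lost in duplicate 1 (-1.39, adjusted p = 0.0927) and duplicate 2 alone (-1.31, adjusted p = 0.0838) and without either culture of the AC donor (adjusted p = 0.0191 and 0.0380). It was also lost without 3 of 7 donors and with the duplicates of each donor summed (-1.33, adjusted p = 0.0439 for *Vgll3*). With 4-HT, *Vgll3* was 1 of 6 genes of the list with a lower level where the *Braf* allele was present (-1.71 ± 0.21, adjusted p = 9.27e-07, and -1.80 without those samples), and 0 were higher, as compared with 30.2% of all genes called in either direction.

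Of 20 genes used as targets of YAP and TEAD across tumour types, 15 could be analysed here, and calls went in both directions. In AC 1 was called (*Crim1*, lower), in PAC 7 (3 higher, 4 lower), in BAC 6 (4 higher, 2 lower) and in BPAC 8 (5 higher, 3 lower). The share of all genes called was 7.25%, 23.4%, 41.9% and 45.0%. Without the PAC samples that stood apart, 2 of the 7 PAC calls were left (*Crim1* at -0.43 and *Arhgef17* at 1.60), with 7.08% of all genes called. The replicate block raised the counts of targets to 3, 10, 11 and 11, and the shares of all genes to 16.4%, 34.9%, 51.9% and 54.4%. With library size alone, 1, 6, 4 and 5 targets were higher and 1, 2, 1 and 1 lower in AC, PAC, BAC and BPAC, where 13.4%, 30.5%, 44.0% and 47.1% of all genes were called. The median change was 0.05, 0.21, 0.04 and -0.02. *Ccn1* and *Ccn2*, the most widely used targets, were not called in any genotype, with 0.34, 0.43, -0.05 and -0.25 for *Ccn1* and 1.01, 1.70, 1.26 and 1.04 for *Ccn2* in AC, PAC, BAC and BPAC. Without the samples that stood apart, the PAC values were 0.10 and 1.67. Under the replicate block, *Ccn2* was called in PAC, BAC and BPAC. *Amotl2* and *Lats2*, which are targets too, are not counted here.

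The called targets with the largest mean changes were *Nt5e*, *Rbms3*, *Fjx1* and *Arhgef17*. *Rbms3*, which encodes an RNA-binding protein, rose in BAC (1.48 ± 0.23, adjusted p = 7.94e-06) and BPAC (2.17 ± 0.23, adjusted p = 3.52e-08). Its changes in AC (1.20 ± 0.31, adjusted p = 0.0104) and PAC (0.69 ± 0.22, adjusted p = 0.0158, and 0.62 without the samples that stood apart) missed the threshold and were called under the replicate block. *Fjx1*, which encodes a secreted homologue of Drosophila four-jointed, rose in PAC (1.42 ± 0.34, adjusted p = 0.0022), BAC (1.74 ± 0.33, adjusted p = 0.000108) and BPAC (2.12 ± 0.35, adjusted p = 1.42e-05), with 0.05 ± 0.46 in AC. The PAC call of *Fjx1* was lost without the samples that stood apart (1.49, adjusted p = 0.0155). *Arhgef17* rose in the same genotypes (1.76 ± 0.30, 1.31 ± 0.30 and 1.35 ± 0.29, adjusted p = 0.000116, 0.00071 and 0.000402), with 1.60 in PAC without those samples. *Nt5e*, which encodes the ectonucleotidase CD73, was called lower in PAC (-2.0 ± 0.55, adjusted p = 0.00654), but not without those samples (-2.09, adjusted p = 0.0551). Its changes in BAC (-1.38 ± 0.52, adjusted p = 0.0281) and BPAC (-1.46 ± 0.52, adjusted p = 0.0207) missed the threshold and were called under the replicate block. None of the 15 targets was called for a difference in change by the *Braf* allele in edgeR (lowest adjusted p = 0.0187, for *Rbms3*), with 3 at an unadjusted p of under 0.05 beside 28.5% of all genes, 0 called by limma-voom, 2 by DESeq2 and 4 under the replicate block, where 14% of all genes were called. For the level with 4-HT, 2 of 15 targets were called, as compared with 30.2% of all genes: *Ccn1* (-0.89) and *Crim1* (-0.33) were lower with the allele, at -0.73 and -0.41 without the PAC samples that stood apart.

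**Figure D5:**
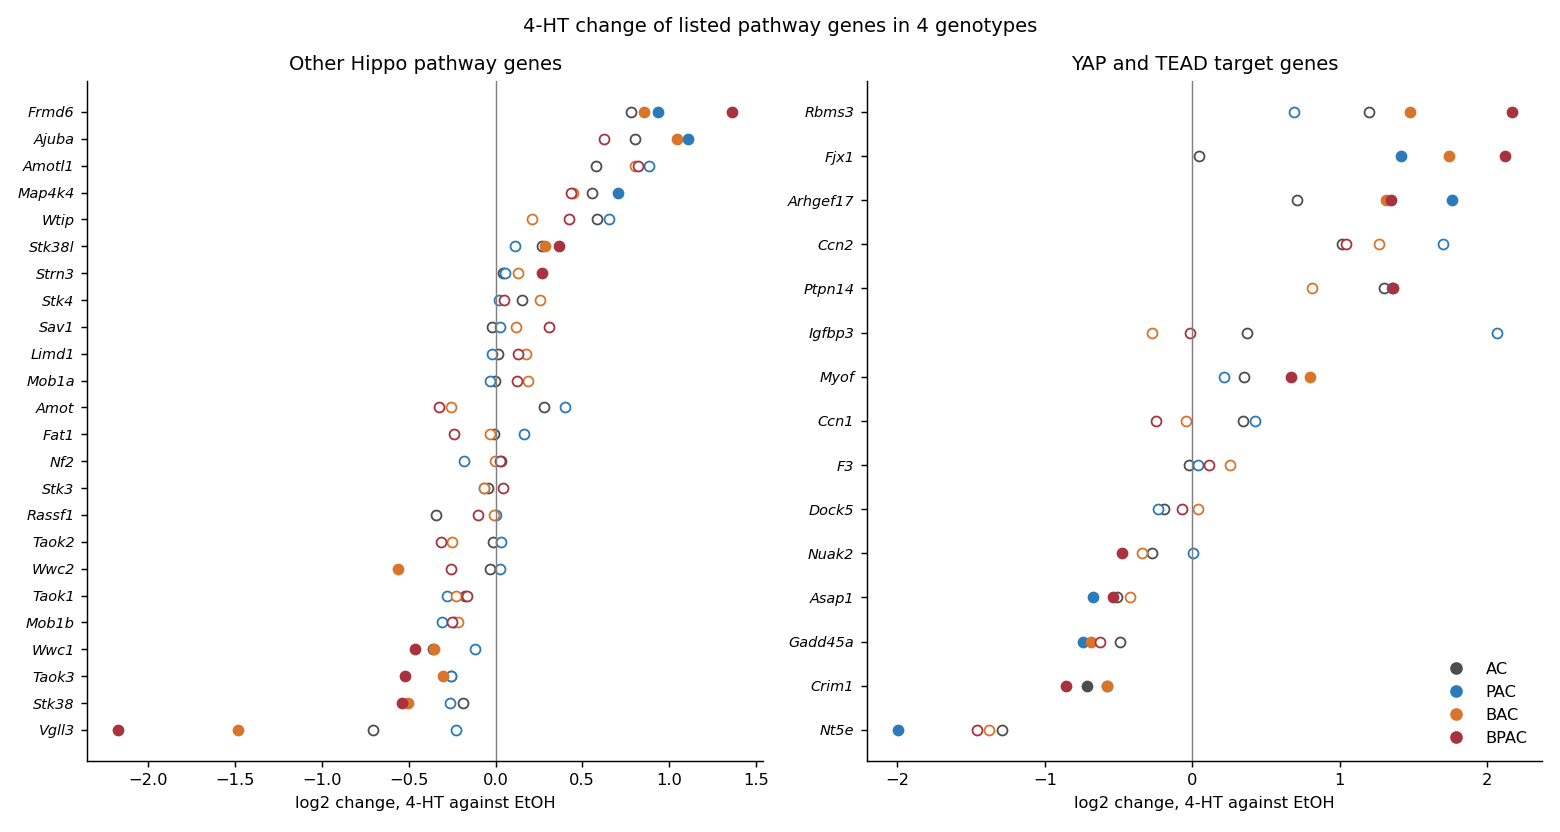
Log2 change with 4-HT against EtOH for 24 Hippo pathway genes and 15 target genes of YAP and TEAD, as estimated by edgeR. Colours are genotypes and filled points have an adjusted p of under 0.01. Both lists spread to either side of 0, with *Vgll3* lowest in BPAC (-2.17) and *Rbms3* highest in BPAC (2.17).

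The genes whose log2 CPM followed *Tead2* most closely over the 28 samples were *Rab15* (Pearson's r = 0.968), *Trit1* (0.965), *Mycl* (0.964), *Slc41a1* (0.963) and *Sox9* (0.961). Within the 14 EtOH samples, r was 0.884, 0.552, 0.501, 0.795 and 0.845, and within the 14 4-HT samples 0.727, 0.874, 0.937, 0.483 and 0.479. *Mycl*, a MYC family member, and *Trit1* are neighbours on chromosome 4. The 28 samples share treatments, donors and duplicates, and the values over all of them include the difference between EtOH and 4-HT. By rank (Spearman's correlation), *Rab15* alone remained among the first 5. Among the members, *Vgll4* was the closest to *Tead2* (r = 0.930, rank 31 of all genes), followed by *Tead4* (0.759). Within EtOH, r with *Tead2* was 0.394 for *Vgll4* and 0.131 for *Tead4*. Within 4-HT, it was 0.745 for *Vgll4* and -0.592 for *Tead4*, so that *Tead4* did not follow *Tead2* within a treatment. *Yap1* was followed most closely by *Rrp1b* (0.969), *Trnt1* (0.961), *Neto2* (0.960), *Tra2b* (0.959) and *Aasdhppt* (0.958), with 0.673 to 0.820 within EtOH and 0.891 to 0.941 within 4-HT, and *Rrp1b* alone remained by rank. Of the members, *Tead4* was closest to *Yap1* (0.891 over 28 samples, 0.820 with 4-HT and about 0 with EtOH), and within the 4-HT samples *Yap1* and *Tead2* ran against each other (r = -0.756).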

How the data were processed

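RNA-seq counts of 28 colon organoid samples were used. Per the labels and methods, the authors trimmed reads with Trimmomatic 0.39, aligned them to GRCm38 with STAR 2.5.2b, and deposited raw counts per gene, which are whole numbers without normalization. The counting program, annotation and strandedness are not given in the sources used here, so reads of antisense or near-identical genes may be shared. Of 13519 genes, 13479 were matched to a symbol in GENCODE (GRCm38). The sample labels state 3.5 µM 4-HT. The label of the 4-HT sample of the second BAC donor that carries no number was read as duplicate 1.

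The 10 members and the gene lists were chosen with earlier results of these data known. All genes were fitted with edgeR 4.0.16 (R 4.3.3; TMM, quasi-likelihood F-test) over 8 groups, with Benjamini-Hochberg adjustment over all 13519 genes and a threshold of 0.01 after the study's methods. All genes passed the minimum row sum of 2. Members were all described. From each list, genes called in the *Braf* contrast and the 4 with the largest mean change among those called were named, as were the 5 genes most correlated with *Tead2* and with *Yap1*. Changes per culture use log2 CPM with a prior count of 2. The scripts were tested on simulated data. Alternatives were limma-voom (limma 3.58.1), DESeq2 1.42.0, other scalings and filters, thinning, summed duplicates, the duplicate number as a covariate, each duplicate alone, left-out cultures and donors, and a replicate block. Samples of the same donor and duplicate number were taken as the same culture, which the labels do not state. In the 12 such pairs of groups of 4, deviations from the group means correlated with r = 0.245 to 0.532. The other pairs of a group correlated with -0.489 to 0.44 (mean -0.138), so that the ranges overlap. Totals of 20577276 to 40068718 counts gave 38 or more counts for each member in each sample, and no molecular identifiers were counted.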

Additional observations from a re-analysis of the deposited data

Results flagged for a closer look

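The EtOH sample of duplicate 1 of the second BPAC donor had *Tead2* at 8.74 CPM, far above the other samples of its group by Dixon's criterion. *Wwtr1* was at 4.76 CPM in the EtOH sample of duplicate 2 of the second BAC donor, which also passed that criterion. These were 2 of 90 groups of 4 examined, and chance alone marks about 1 in 20 groups.

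The change with 4-HT differed with the *Braf* allele for *Yap1* (a log2 difference of 0.459, higher in 8 of 8 cultures with the allele than in any of the 6 without it), *Amotl2* (-0.553) and, among the other Hippo pathway genes, *Vgll3* (-1.36). Each was called by edgeR over all samples, and was called in neither duplicate alone. Depth was highest in duplicate 1 of BAC and BPAC with 4-HT. With all samples thinned to the smallest total, *Yap1* stayed called (0.48) and *Amotl2* (-0.50) and *Vgll3* (-1.31, adjusted p = 0.0156 in edgeR) did not.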

How the results depend on the processing

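Across the alternatives, 338 values that answer a comparison stayed on the same side of their threshold or within 1.5 times of their count, 31 moved and 1 reversed. The number of members called for the 4-HT change in AC was 3 and became 1 in duplicate 1 alone, 0 in duplicate 2 alone and 0 to 3 when single cultures or donors were left out. In PAC it was 5 and became 0 in duplicate 2 alone, 3 without the 4-HT-treated PAC samples of duplicate 1, and 1 to 5 with cultures or donors left out. It stayed at 5 in BAC and BPAC whichever culture or donor was left out. For the *Braf* allele and the 4-HT change, 2 members were called, with 4 when the duplicate number was a covariate (*Tead4* and *Lats1* in addition), 0 in duplicate 1 alone, 0 in duplicate 2 alone, 1 after thinning, 1 without the PAC samples that stood apart, and 0 to 3 when cultures or donors were left out. With 4-HT, the *Braf* allele gave 6 calls, with 3 in duplicate 1 alone, 1 in duplicate 2 alone, 5 with the duplicates of each donor summed (*Tead1* and *Lats2* lost, *Lats1* gained), 7 with the duplicate number as a covariate and 5 to 6 with cultures or donors left out. The fits with parts of the samples left out or 1 duplicate hold fewer samples. Without the PAC samples that stood apart, 5.87% of all genes were called for the *Braf* allele and the 4-HT change. When the PAC samples that stood apart were summed as 1 sample, an alternative chosen after seeing the data, *Yap1* stayed called for the *Braf* contrast (0.45, adjusted p = 0.00589).

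The paired fit with the culture as a replicate block gave 3, 6, 5 and 5 members for the 4-HT change in AC, PAC, BAC and BPAC (16.4%, 34.9%, 51.9% and 54.4% of all genes), and 3 for the *Braf* contrast (*Tead4* in addition, 14% of all genes); it changed no other call of a member. The donor difference of *Tead2* turned from -0.24 to 0.11 in duplicate 2 alone and was -0.45 to -0.03 with a donor left out. *Fjx1* in AC turned from 0.05 to -0.13 in duplicate 2 alone and to -0.13 without AC duplicate 1 (0.25 without AC duplicate 2), and none of these was called. Among the members, *Wwtr1* (38 counts in the sample with fewest) had the widest SE, at 0.36 to 0.51 for the 4-HT changes.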

Other observations

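Duplicates of the same donor differed for several members in the same direction. With 4-HT, *Tead2* was lower in duplicate 2 than in duplicate 1 in 7 of 7 donors (median log2 difference -0.36), and *Vgll4* was lower in 7 of 7 (median -0.15). *Lats1* was higher in duplicate 2 in 7 of 7 donors with EtOH (median 0.48) and in 7 of 7 with 4-HT (median 0.62). *Wwtr1*, *Tead1* and *Yap1* were higher in duplicate 2 in 6 of 7 donors with EtOH (medians 0.65, 0.36 and 0.25) and in 5, 4 and 4 of 7 with 4-HT. Per the supplement of the study, duplicates were distinct passages. These values were not tested.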
